A study of Mus musculus with 35 samples.

Results

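Germinal centre B cells of the mouse spleen were compared with transitional B cells of the spleen on Affymetrix Mouse 430A2 expression arrays. The arrays were chosen by their titles: 5 of germinal centre B cells and 4 of transitional B cells, 9 of the 35 arrays of a series on B-cell development and lymphoid tumours. Germinal centre cells were sorted as B220+ and high for peanut agglutinin (PNA) binding, from wild-type mice of strain B6. Transitional cells were sorted as B220+ Cd93+, from wild-type mice of strain 129. A further group, 4 arrays of B220+ Cd138+ Cd93- plasmablasts from spleens of wild-type B6 mice, is given beside them where a value without a change of strain helps. Stage and strain cannot be told apart within the 9 arrays, since each group holds 1 strain. Total RNA had been amplified with the NuGen Ovation system before labelling. The labels do not say whether replicates were separate mice or pools, so p-values measure a spread between arrays, which may be technical.

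Transitional B cells are recent emigrants from the bone marrow on their way to the naive pool, and most of them do not divide. A germinal centre forms in a follicle when activated B cells, with T-cell help, begin rapid division, mutate their antibody genes and compete for survival signals. Its cells cycle between a dark zone of division and a light zone of selection under the repressor Bcl6, and the series was titled around Yy1, a zinc finger factor, as a regulator of this state.

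The deposited values were log2 intensities from 1.71 to 14.29, with 4.92 as their median. The comparison held 12393 genes. Differences below are log2, germinal centre minus transitional, ± SE, with n = 5 and 4. SEs and p-values rest on a spread shared over the 22 normal arrays of 6 stages, not on that of the 9 arrays alone. Adjusted p-values come from limma over all genes, and a gene is called at an adjusted p under 0.05. Of all genes, 1673 were called (13.5%): 656 were higher (5.29%) and 1017 lower (8.21%) in germinal centre cells. The called increases were larger, with a median size of 1.83 against 1.20. They were also brighter: 9 of the 656 had a mean under the median of all values in both groups, against 594 of the 1017 decreases (58.4%) and 41.8% of all genes. The median difference of all genes was -0.27, so that small decreases lie near the middle of the array. It moved to -0.05 after renewed quantile normalization, and 908 genes were then called, 56.8% of them higher against 39.2%. Calls numbered 949 and 941 without transitional replicates 1 and 2, and 1030 and 990 without germinal centre replicates 1 and 2. With arrays set to equal medians 53.6% of 1348 calls were higher, and without dim genes 68.0% of 868. Arrays of the groups did not overlap in 34.8% of all genes, with germinal centre cells higher in 9.81% and lower in 25%. In a fit of the 9 arrays alone, 5286 genes were called (42.7%), among them all 1673. Without pro-B replicate 1 and pre-B replicate 2, arrays of narrow spread (interquartile range 2.09 and 2.03), 5139 were called. The interquartile range of values was 3.95 to 4.14 in germinal centre arrays and 3.26 to 3.67 in transitional ones, and its part in these differences was not tested.

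**Figure D1:**
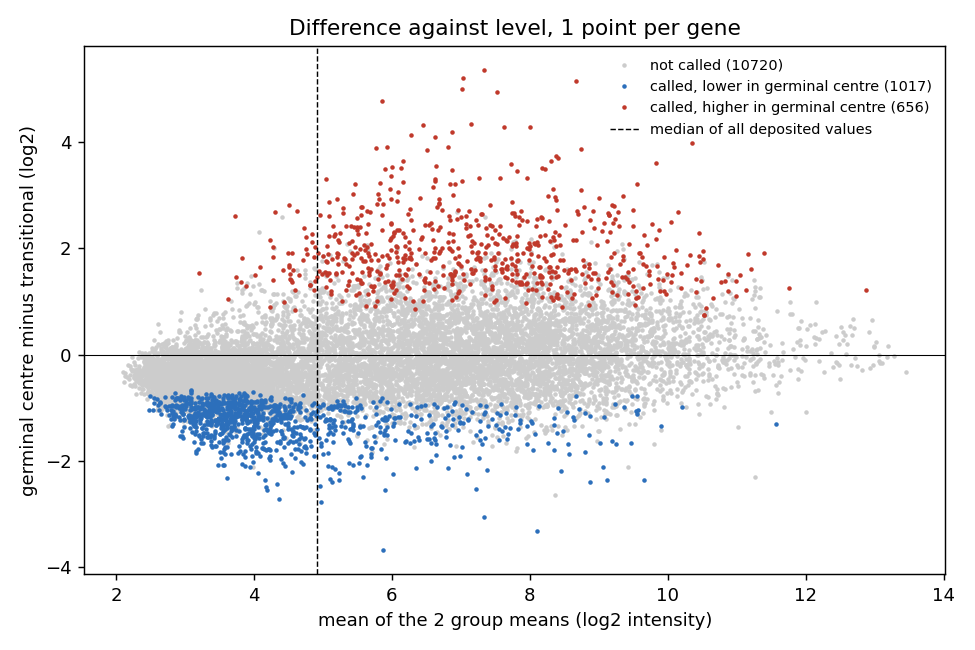
Each point is 1 gene, with the mean of both group means on the x axis (log2 intensity) and the log2 difference, germinal centre minus transitional, on the y axis. The 656 genes called higher lie mostly at middle and high levels, while 594 of the 1017 genes called lower lie left of the dashed line, the median of all values (4.92), in both groups.

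With strain as a covariate, which pro-B cells alone can separate from stage (2 arrays of strain 129 and 1 of B6), SEs grew by a median factor of 2.09 and 40 genes were called, with 1336 at an unadjusted p under 0.05. The pro-B arrays of strain 129 include replicate 1, an array of narrow spread (interquartile range 2.09), and its part in these values was not tested. Of the 1673 calls, 1651 kept their direction and 31 their call. Among the genes named here these were Atf3, Bcl3, Becn1, Cd3e, Cd7, Cd8a, Ctla2a, Ctsw, Cxcr3, Hes1, Il2rb, Irs2, Klrd1, Ms4a4b, Mtmr7 and Trps1. Except for Ctla2a (4.13 to 3.72), their differences were larger with the covariate, as for Il2rb (2.94 to 6.00) and Atf3 (-2.13 to -4.16). A kept call thus does not mean an unchanged difference. All other calls of this comparison named below were lost with that covariate. None of the 656 higher genes had every B6 array above every 129 array among the 22 normal arrays. Such a pattern has to hold across 6 stages, and only 2 of all 12393 genes had one in either direction. Its absence therefore cannot decide whether strain has a part in a difference. One lower gene, Lmcd1, had every B6 array below (-0.90 ± 0.24, adjusted p = 0.0184). Some markers of other cells were also called higher in the germinal centre arrays: 12 of 13 for NK cells, 7 of 16 for T cells, 8 of 13 for granulocytes and 8 of 17 for macrophages and dendritic cells. These counts stand beside 5.29% of all genes called higher, and the values of the markers are given after the B-cell genes. In sorted bulk samples, fewer cells of a type and less RNA per cell cannot be told apart.

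Gcsam, Mef2b and Fas, markers of germinal centre cells, were higher in the arrays with that label. Gcsam, a signalling adaptor named for the germinal centre, stood at 9.05, 8.41, 7.82, 8.0 and 6.17 in germinal centre replicates 1 to 5, and at 3.95, 3.95, 4.21 and 3.81 in transitional replicates 1 to 4. The transitional arrays lay close together near the dim end, and every germinal centre array was above them, with replicate 5 lowest. Gcsam was 15-fold higher (3.91 ± 0.51, adjusted p = 0.000105), and the plasmablast mean was 4.42. Mef2b, a transcription factor that activates Bcl6, stood at 6.71, 7.32, 8.04, 8.07 and 6.39 against 4.37, 2.98, 5.05 and 4.77 (8.08-fold, 3.02 ± 0.43, adjusted p = 0.000207). Fas, the death receptor displayed by germinal centre B cells, stood at 9.0, 8.32, 8.13, 8.47 and 6.86 against 4.79, 5.14, 5.89 and 5.05 (7.67-fold, 2.94 ± 0.45, adjusted p = 0.000358). The groups did not overlap for either gene, and replicate 5 again was the lowest germinal centre array of both.

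Pou2af1, a coactivator of octamer factors needed for germinal centres, was already bright in transitional cells (10.39, 10.37, 10.07 and 10.33). It stood at 11.62, 11.69, 11.87, 11.84 and 11.40 in germinal centre cells, a narrow shift of 1.40 ± 0.30 (adjusted p = 0.005). Bcl6 itself stood at 11.28, 11.40, 11.24, 11.57 and 10.63 against 9.93, 9.31, 9.52 and 10.26. It had no overlap, as in 9.81% of all genes in that direction. Its difference of 1.47 ± 0.62 did not pass over the 22 arrays (adjusted p = 0.118), and passed in the 9 arrays alone (adjusted p = 0.00128, range over all alternatives 0.000124 to 0.918). The other Bcl6 probe set moved by 0.41 and overlapped, at 4.98 to 6.69 against 5.29 to 6.12. Pax5, the factor that maintains B-cell identity, was lower, at 3.18, 3.47, 3.89, 4.11 and 3.56 against 5.37, 5.03, 5.35 and 3.91 (-1.27 ± 0.30, adjusted p = 0.00807). Its 1 probe set was dim in both groups, the arrays overlapped, and the call was lost after renewed quantile normalization (adjusted p = 0.0616). Of 14 germinal centre regulators measured, 4 were called higher and 1 lower (35.7%, beside 13.5% of all genes called). Their median was 0.59 beside -0.27 for all genes. With the strain covariate limma called 0, with a median of 0.41 and 5 higher and 1 lower at an unadjusted p under 0.05. Mybl1, a factor of the dark zone, did not pass (0.69 ± 0.48, adjusted p = 0.352): it was 5.50 to 6.15 in 4 germinal centre arrays, 3.22 in replicate 5 and 4.18 to 5.11 in transitional cells. S1pr2 and Rgs13 were not analysed here.

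**Figure D2:**
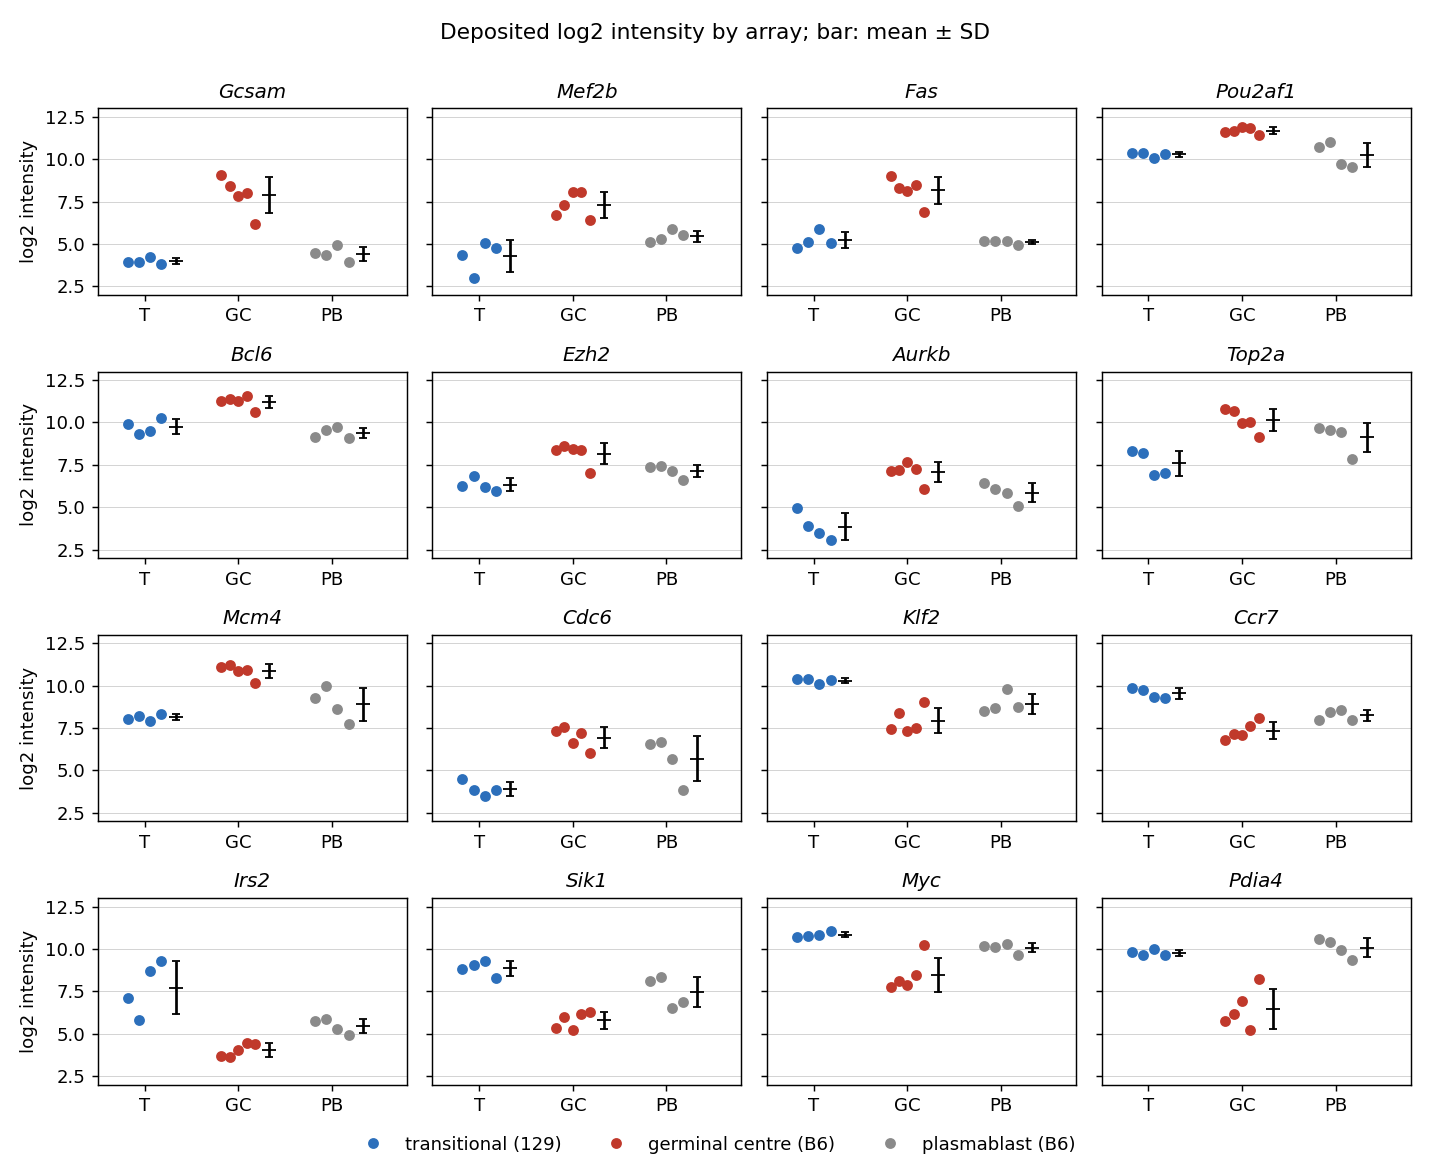
Log2 intensity (y axis) of 16 genes in each array of transitional (T, blue), germinal centre (GC, red) and plasmablast (PB, grey) cells, with replicates in numerical order from left to right and bars for the mean ± SD. Gcsam and Fas separate germinal centre cells from both other groups, while Pdia4 is lower in germinal centre cells than in both, with replicate 5 nearest to them. Myc is lower than in both in the germinal centre arrays other than replicate 5, which lies among the plasmablasts.

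Mitosis genes, which condense, align and separate chromosomes, were higher in most members measured. Of 24 measured, 19 were called higher and 0 lower (79.2%, beside 5.29% of all genes called higher), with a median of 2.29. The members ranged from 0.01 to 3.36, and those not called were Ndc80, Cenpa, Aurka, Mad2l1 and Kif20a. Aurkb, the kinase that corrects chromosome attachment, stood at 7.13, 7.22, 7.64, 7.24 and 6.09 against 4.96, 3.91, 3.49 and 3.06 (9.25-fold, 3.21 ± 0.51, adjusted p = 0.000424). Tpx2, which builds the spindle, stood at 8.03, 8.09, 7.61, 7.88 and 6.71 against 5.24, 4.54, 3.63 and 3.79 (10.3-fold, 3.36 ± 0.63, adjusted p = 0.00163). Both sets of arrays were well apart, and germinal centre replicate 5 was again lowest.

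Among the other called mitosis genes were Nusap1 (3.33 ± 0.70), which bundles spindle microtubules, and Ube2c (2.82 ± 0.64), which passes ubiquitin to cyclins at mitotic exit. Incenp (2.63 ± 0.49), the scaffold of the Aurkb complex, and Top2a (2.53 ± 0.50), which untangles DNA, were higher as well, as was Kif11 (2.30 ± 0.50), the motor that separates spindle poles. The proliferation antigen Mki67 stood at 11.60, 11.46, 10.90, 10.88 and 9.73 against 9.42, 9.36, 7.86 and 8.31 (2.18 ± 0.54, adjusted p = 0.0111). Transitional cells were thus not without these transcripts: Mki67 and Top2a (8.29, 8.18, 6.92 and 7.02) were above the array median in each transitional array. Ccna2, the S and G2 cyclin (2.60 ± 0.66, adjusted p = 0.0126), lost its call without transitional replicate 4 (adjusted p = 0.0555). Cdk1, the mitotic kinase (2.59 ± 0.81, adjusted p = 0.039), lost it without any 1 of transitional replicates 1, 3 and 4 or germinal centre replicates 1 to 4 (0.0359 to 0.122 over the 9 arrays left out). Other probe sets of these genes moved less and overlapped: Nusap1 by 0.05, Aurkb by 1.28, Kif11 by 1.72 and 0.66, Incenp by -0.24 in 1 of its other 2, and Top2a, dim, by -0.21. With the mean of probe sets their differences were 1.69, 2.24, 1.56, 1.63 and 1.16, all still called (adjusted p = 0.00241 to 0.0391).

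The mean level of the mitosis list varied inside both groups. It was 8.58, 8.58, 8.14, 8.14 and 7.06 in germinal centre replicates 1 to 5, and 6.51, 6.35, 5.54 and 5.35 in transitional replicates 1 to 4. Plasmablasts stood at 7.58, 7.43, 7.35 and 6.02, so that replicates 1 to 3 were above all transitional arrays and germinal centre replicate 5, and replicate 4 was inside the transitional range. So the gap between the nearest arrays of both groups, replicate 5 and transitional replicate 1, was far smaller than the gap between the means. Without transitional replicate 4 the count of called members was 12, and with the strain covariate in limma it was 0, with a median of 1.05 and 1 at an unadjusted p under 0.05. Against plasmablasts of the same strain, Aurkb differed by 1.20 (adjusted p = 0.412) and Tpx2 by 0.92 (adjusted p = 0.825), and neither passed.

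Since 19 of the 24 mitosis genes were called in 1 direction, their promoters are shown beside the values. RefSeq windows (GRCm38.p6) from 250 bases before to 50 after the start were found for 18 of the 24 genes. The motifs searched, on both strands, were the cell cycle homology region (CHR, TTTGAA), bound by the MuvB complexes that silence genes in resting cells, the CCAAT box (CCAAT) of factor NF-Y, an E2F site (TTNGCGC) and a Yy1 core (AANATGG). A CHR was in 13 of 18 mitosis promoters (72.2%), beside 19.7% of genes called higher, 14.2% of those called lower and 13% of all 9887 tested genes with a window. A CCAAT box was in 14 of 18 (77.8%, beside 38.1% of all), an E2F site in 11.1% (10% of all). A match is only a run of letters. The 4 promoters below belong to the called mitosis genes of largest difference that hold both a CHR and a CCAAT box before the start. They end at the base before the start, with CHR, CCAAT and E2F letters of either strand in capitals.
Ube2c, chr2:164769759-164769928, plus strand: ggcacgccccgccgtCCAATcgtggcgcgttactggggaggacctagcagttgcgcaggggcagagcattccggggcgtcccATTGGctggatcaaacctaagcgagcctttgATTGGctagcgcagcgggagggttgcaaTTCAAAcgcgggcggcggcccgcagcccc
Cdk1, chr10:69352913-69353082, minus strand: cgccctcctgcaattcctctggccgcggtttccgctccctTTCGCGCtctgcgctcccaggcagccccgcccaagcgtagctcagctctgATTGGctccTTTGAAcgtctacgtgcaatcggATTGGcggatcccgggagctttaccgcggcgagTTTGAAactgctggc
Top2a, chr11:99024190-99024359, minus strand: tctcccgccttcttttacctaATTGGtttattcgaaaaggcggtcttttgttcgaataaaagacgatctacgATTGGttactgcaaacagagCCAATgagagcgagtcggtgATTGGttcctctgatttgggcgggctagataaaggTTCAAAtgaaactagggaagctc
Kif11, chr19:37376322-37376381, plus strand: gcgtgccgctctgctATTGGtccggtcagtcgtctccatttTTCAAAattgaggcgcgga
In all 4, the CHR nearest to the start lay within 29 bases of it, downstream of every CCAAT box shown.

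Of 28 DNA replication genes measured, 11 were called higher and 0 lower (39.3%, beside 5.29% of all genes called higher), with a median of 1.29, and 27 of 28 differences were above 0. In the 9 arrays alone 21 were called, and with the strain covariate in limma 0, with a median of 0.51 and 2 at an unadjusted p under 0.05. Mcm4, a subunit of the replicative helicase, stood at 11.10, 11.22, 10.85, 10.95 and 10.18 against 8.05, 8.21, 7.92 and 8.33 (6.63-fold, 2.73 ± 0.42, adjusted p = 0.000348). It was also higher than in plasmablasts of the same strain (by 1.96, adjusted p = 0.027). Its second probe set moved the same way by less (0.87), without overlap. Cdc6, which loads the helicase onto origins, stood at 7.32, 7.54, 6.64, 7.18 and 6.01 against 4.47, 3.86, 3.48 and 3.87 (3.02 ± 0.63, adjusted p = 0.00385). For both genes every germinal centre array was above every transitional one.

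Mcm6 (2.7 ± 0.51) and Mcm3 (1.49 ± 0.28), further helicase subunits, were higher, as were Pole (2.03 ± 0.33) and Pola1 (2.21 ± 0.54), catalytic subunits of DNA polymerases. Pcna, the sliding clamp, was bright in both groups and did not pass (1.24 ± 0.45, adjusted p = 0.0711). Hells, a chromatin remodeller of dividing lymphocytes, was 18.1-fold higher (4.18 ± 0.65), and Dck, which salvages deoxynucleosides, 14.6-fold (3.87 ± 0.38, adjusted p = 5.48e-06). Dck stood at 10.69, 11.02, 10.69, 10.99 and 9.96 against 7.07, 6.29, 6.82 and 7.02, without overlap. An E2F site was in 9 of 25 replication promoters (36%, beside 10% of all tested genes) and a CHR in 3 (12%, beside 13%), so these promoters held the letters in other shares than the mitosis list. The called replication genes with an E2F site before the start, Mcm6 and Pola1, are shown in the same way.
Mcm6, chr1:128359706-128359829, minus strand: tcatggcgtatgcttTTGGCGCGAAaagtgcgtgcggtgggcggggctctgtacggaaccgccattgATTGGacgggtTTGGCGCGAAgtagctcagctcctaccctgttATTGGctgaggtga
Pola1, chrX:93632156-93632308, minus strand: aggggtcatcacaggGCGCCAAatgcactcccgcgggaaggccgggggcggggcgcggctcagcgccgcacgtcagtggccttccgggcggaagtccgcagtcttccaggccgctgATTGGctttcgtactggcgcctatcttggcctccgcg
Each run of TTGGCGCGAA in Mcm6 is a pair of overlapping matches, 1 on each strand.

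Regulators of entry into the cycle moved both ways. Of 21 G1 control genes, 1 was called higher and 2 lower, with a median of 0.34. Ccne2, the cyclin that starts S phase, stood at 8.43, 7.59, 6.12, 6.10 and 5.69 against 5.22, 4.67, 5.16 and 4.64 (1.86 ± 0.45, adjusted p = 0.0101). Mxd4, a partner of Max that opposes Myc, was lower (-1.66 ± 0.44, adjusted p = 0.0161). Myc, the transcription factor of cell growth that marks positively selected germinal centre cells, stood at 7.75, 8.08, 7.90, 8.44 and 10.23 against 10.69, 10.76, 10.84 and 11.06. Replicate 5 stood far from the other germinal centre arrays and close to the transitional ones. The difference of -2.36 ± 0.75 passed narrowly (adjusted p = 0.0407). The call was lost without any 1 of the 4 transitional arrays or germinal centre replicates 1 to 4, and held without replicate 5 (0.0214 to 0.0942 over the 9), and was lost after renewed quantile normalization (0.0599). Plasmablasts lay at 10.20, 10.10, 10.30 and 9.67, above each of germinal centre replicates 1 to 4.

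Of 16 mutation and repair genes, 2 were called higher and 0 lower (12.5%, beside 13.5% of all genes called and 5.29% called higher), with a median of 0.89. Of the differences, 14 were above 0. In the 9 arrays alone 11 were called higher, beside 13.2% of all genes called higher there, and with the strain covariate 0 were called. H2ax, the histone variant phosphorylated at DNA breaks, was higher (1.60 ± 0.36, adjusted p = 0.00672). Xrcc5, a subunit of the Ku end-binding complex, passed (1.39 ± 0.43, adjusted p = 0.0365) but not without any 1 of transitional replicates 1 and 2 or germinal centre replicates 1 to 4 (0.0381 to 0.12 over the 9 arrays), nor after renewed quantile normalization (0.113). Ung, the glycosylase that removes uracil from DNA, stood at 9.13, 9.27, 8.86, 8.94 and 8.16 against 7.37, 7.65, 7.66 and 8.22 and did not pass (1.15 ± 0.40, adjusted p = 0.0584).

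Polycomb repressive complex 2 methylates histone H3 at lysine 27 and is needed in germinal centres. Of its 11 genes measured, 5 were called higher and 1 lower (54.5%, beside 13.5% of all genes called), with a median of 0.35. Ezh2, the catalytic subunit of dividing cells, stood at 8.35, 8.62, 8.46, 8.35 and 7.04 against 6.26, 6.85, 6.20 and 5.98 (3.60-fold, 1.85 ± 0.48, adjusted p = 0.0148). Germinal centre replicates 1 to 4 lay close together, and replicate 5 lay nearer to the transitional arrays. Mtf2, an accessory subunit that recruits the complex, differed most, at 10.80, 10.44, 10.07, 10.10 and 9.2 against 6.84, 6.15, 7.74 and 5.21 (3.64 ± 0.56, adjusted p = 0.00038), with all 4 probe sets in the same direction. Rbbp7, a histone chaperone, was higher (1.53 ± 0.39, adjusted p = 0.013), but not without transitional replicate 2 (0.0616). Phf19 (1.22 ± 0.31, adjusted p = 0.0137) overlapped between the groups and lost its call with the mean of its probe sets (0.199), and the core subunit Suz12 (1.06 ± 0.32, adjusted p = 0.0326) lost its call without any 1 of 7 arrays (all but transitional replicate 2 and germinal centre replicate 5, up to 0.106). Other Suz12 probe sets moved by 1.38, 3.35, 1.39 and 1.44 without overlap, and a dim one by -0.31 with overlap. Ezh1, the catalytic subunit of resting cells, was lower, at 5.94, 5.84, 6.37, 6.70 and 7.10 against 7.22, 7.00, 8.08 and 8.43 (-1.29 ± 0.40, adjusted p = 0.0377). That call was lost without any 1 of transitional replicates 3 and 4 or germinal centre replicates 1 to 3 (up to 0.127), and with the mean of its probe sets (0.158).

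Yy1 did not pass, and its probe sets disagreed. The brightest stood at 10.58, 10.57, 10.10, 10.44 and 10.18 against 10.02, 9.59, 9.04 and 8.94, without overlap (0.98 ± 0.46, adjusted p = 0.165, range 0.00156 to 0.998 over all alternatives). Another moved the other way without overlap, from 7.98 to 9.02 in transitional arrays to 7.01 to 7.75 in germinal centre arrays (-1.04), and the remaining pair gave -0.38 and -0.62. With the mean of the 4 probe sets Yy1 differed by -0.27 (adjusted p = 0.649). Of 11 genes of Yy1 and the INO80 remodelling complex to which it belongs, 1 was called higher and 0 lower. That is 9.1%, beside 13.5% of all genes called, with a median of -0.25. The called gene was Ino80c (1.56 ± 0.33, adjusted p = 0.00428). The Yy1 core was in 16.6% of promoters of genes called higher, 11.8% of those called lower and 14.8% of all tested genes, and by list in 4 of 18 mitosis (22.2%), 4 of 25 replication (16%) and 2 of 11 Polycomb promoters (18.2%) and in 0 of 13 of the germinal centre regulators. The 0 says only that these letters are not in those windows.

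**Figure D3:**
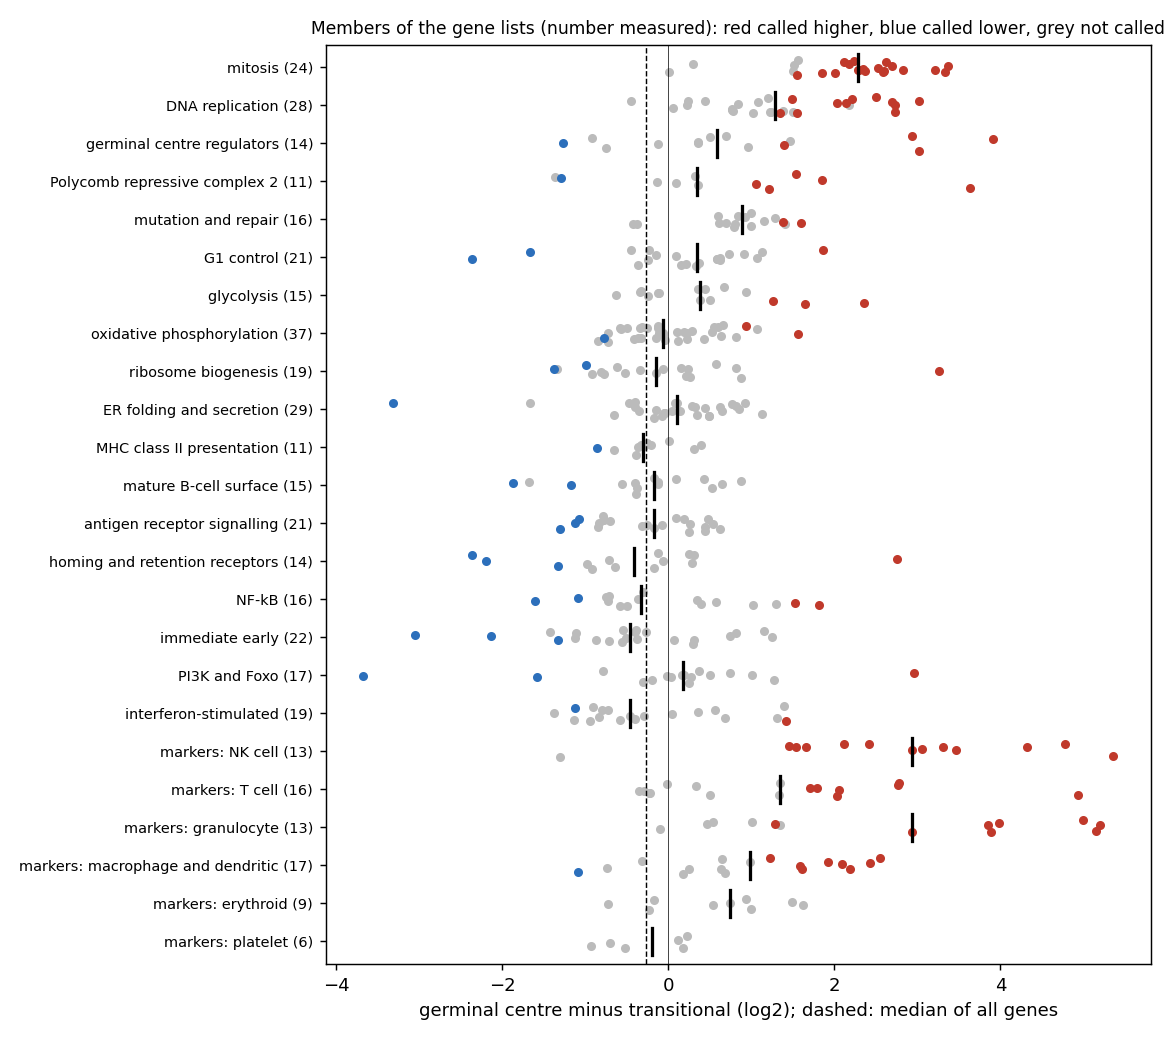
Log2 difference, germinal centre minus transitional (x axis), of every measured member of 24 gene lists (y axis, number measured in brackets), with red points called higher, blue called lower and grey not called, a black bar for each median and a dashed line for the median of all genes (-0.27). Mitosis (19 of 24) and the NK-cell markers (12 of 13) are nearly all red, while most other lists spread around the dashed line.

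Of 21 genes of the antigen receptor and its signalling, 0 were called higher and 3 lower (14%, beside 13.5% of all genes called), with a median of -0.17. Cd79a, a signalling chain of the receptor, stood at 10.31, 10.68, 11.21, 11.07 and 11.34 against 12.26, 12.57, 12.01 and 12.06 (-1.30 ± 0.37, adjusted p = 0.0233). All germinal centre arrays were lower, but the call was lost without any 1 of transitional replicates 1 and 2 or germinal centre replicates 1 and 2 (0.0265 to 0.0783 over the 9 arrays). Dok3, an adaptor that dampens the receptor, was lower (-1.12 ± 0.31, adjusted p = 0.0213), but not without transitional replicate 1 or germinal centre replicate 1 or 2 (up to 0.0642). Vav2, an exchange factor downstream, was also lower but dim (-1.07 ± 0.27, adjusted p = 0.0119), and not after renewed quantile normalization (0.135).

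Of 15 surface genes of mature B cells, 0 were called higher and 2 lower (13.3%, beside 13.5% of all genes called). Ltb, the lymphotoxin chain that shapes follicles, stood at 7.40, 7.71, 7.91, 7.15 and 7.98 against 9.49, 9.58, 9.40 and 9.54 (-1.87 ± 0.39, adjusted p = 0.00356), with the transitional arrays tightly together. Neither Ms4a1 (CD20, 0.88 ± 0.63) nor Cr2, a complement receptor (0.43 ± 0.51), nor Fcer2a (CD23, -0.12 ± 0.51) nor Cd24a (0.53 ± 0.25) passed. Cd24a marks transitional cells and stood at 12.55 to 12.92 in germinal centre cells against 11.89 to 12.52. Cd93, the sort marker of transitional cells, did not pass: its brighter probe set stood at 7.74, 7.51, 5.03 and 5.64 against 5.83, 6.33, 6.61, 6.53 and 6.36 in germinal centre cells (-0.15 ± 0.89, adjusted p = 0.933). Transitional replicates 1 and 2 were above all germinal centre arrays, and replicates 3 and 4 were below them. A dimmer probe set was higher in transitional cells without overlap, at 5.10 to 6.54 against 4.28 to 4.85. Of 11 genes of MHC class II presentation, 0 were called higher and 1 lower (9.1%, beside 13.5% of all genes called). The lower one was dim H2-Ea. Its call was lost without any 1 of transitional replicates 1 and 2 or germinal centre replicates 1 and 2 (up to 0.114). It was also lost with equal medians and after renewed quantile normalization. The brighter H2-Aa (11.33 to 11.67 against 10.95 to 11.25) and Cd74 (12.82 to 13.57 against 13.48 to 13.73) did not pass.

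Of 14 homing and retention receptors and their regulators, which place B cells in the spleen, 1 was called higher and 3 lower (28.6%, beside 13.5% of all genes called), with a median of -0.41. Klf2, the factor that keeps lymphocytes quiescent and recirculating, stood at 7.43, 8.41, 7.32, 7.48 and 9.01 against 10.37, 10.40, 10.08 and 10.33 (5.14-fold lower, -2.36 ± 0.38, adjusted p = 0.00046). Ccr7, which draws cells toward the T-cell zone, stood at 6.78, 7.16, 7.07, 7.64 and 8.09 against 9.88, 9.72, 9.32 and 9.26 (4.58-fold lower, -2.19 ± 0.49, adjusted p = 0.00596). For both, the transitional arrays were nearly level and germinal centre replicate 5 was the highest of its group. S1pr4 (-1.33 ± 0.41, adjusted p = 0.0378) lost its call without any 1 of 7 arrays (all but transitional replicate 3 and germinal centre replicate 5, up to 0.127). S1pr1, the exit receptor under Klf2 control, stood at 6.45, 6.44, 7.46, 7.33 and 8.18 against 8.16, 8.49, 8.37 and 7.57 and did not pass (-0.98 ± 0.43, adjusted p = 0.134).

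The receptors that divide a germinal centre into zones did not separate the groups: Cxcr4 of the dark zone (-0.18 ± 0.36) and Cxcr5 of the follicle (0.29 ± 0.46) did not pass. Cxcr3, a receptor for interferon-induced chemokines that activated T and NK cells carry as well, was higher, at 5.92, 6.75, 7.11, 5.83 and 7.72 against 3.63, 3.42, 4.48 and 4.09 (2.76 ± 0.50, adjusted p = 0.00128). It was one of the calls kept with the strain covariate (adjusted p = 0.0013), where its difference was 5.61. Of the marker lists given further on, 12 of 13 NK-cell and 7 of 16 T-cell markers were called higher in the same arrays, and their part in this value was not tested.

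Irs2, an adaptor that couples insulin and cytokine receptors to PI3K and is a Foxo target, had the largest decrease of all genes. It stood at 3.66, 3.64, 4.02, 4.47 and 4.40 in germinal centre cells, near the dim end, and at 7.09, 5.82, 8.67 and 9.28 in transitional cells, which differed widely among themselves (12.8-fold lower, -3.68 ± 0.53, adjusted p = 0.000225). Insr, the insulin receptor, was lower too, from a dim level (-1.59 ± 0.26, adjusted p = 0.000632). Of 17 PI3K and Foxo genes, 1 was called higher and 2 lower (17.6%, beside 13.5% of all genes called), with a median of 0.18. Pik3ca, a catalytic subunit of PI3K, was the higher one (2.96 ± 0.57, adjusted p = 0.00192), but its other probe set moved by -0.13, and with the mean of both it was lost (adjusted p = 0.062). Foxo1, a factor of the dark zone, stood at 8.84, 9.21, 9.15, 9.56 and 9.27 against 10.52, 10.00, 9.58 and 10.40 and did not pass (-0.92 ± 0.47, adjusted p = 0.2). Its arrays did not overlap, as in 25% of all genes in that direction.

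Pdia4, a disulphide isomerase of the endoplasmic reticulum, was next among the decreases, at 5.75, 6.16, 6.90, 5.20 and 8.21 against 9.83, 9.62, 9.97 and 9.66 (10.0-fold lower, -3.32 ± 0.59, adjusted p = 0.00118). It was lower than in plasmablasts of the same strain as well, which stood at 10.60, 10.40, 9.95 and 9.37 (by -3.64, adjusted p = 0.00336). Germinal centre cells were thus the low group of these 3, with the widest spread. The rest of the folding and secretion list did not share this. Of 29 genes, 0 were called higher and Pdia4 alone lower (3.4%, beside 13.5% of all genes called), with a median of 0.10. Of 7 plasma cell regulators, 2 were called higher and 0 lower (28.6%, beside 13.5% of all genes called). Ell2, an elongation factor that drives secretory antibody mRNA, stood at 9.36, 9.10, 9.26, 9.53 and 8.86 against 6.12, 6.65, 7.35 and 6.70 (2.52 ± 0.46, adjusted p = 0.00134). Jchain, which joins IgM and IgA, was higher (2.30 ± 0.61, adjusted p = 0.0166) but not without transitional replicate 1 (0.0584) or after renewed quantile normalization (0.0599). The master factors Prdm1 (-0.65 ± 0.39) and Xbp1 (0.88 ± 0.58) did not pass. Other probe sets of Xbp1 moved by 0.48 and 0.17 with overlap, and by 2.29 without it (7.39 to 8.02 against 4.12 to 6.65).

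Antigen, handling and stress induce immediate early genes within minutes. Of 22 measured, 0 were called higher and 3 lower (13.6%, beside 13.5% of all genes called). Their median was -0.46 beside -0.27 for all genes. Sik1, a kinase induced by cyclic AMP, stood at 5.31, 5.99, 5.22, 6.18 and 6.29 against 8.83, 9.03, 9.28 and 8.28 (8.31-fold lower, -3.06 ± 0.51, adjusted p = 0.000717). Atf3, a stress factor, stood at 5.21, 5.36, 4.30, 5.63 and 5.91 against 7.51, 7.75, 7.38 and 7.03 (-2.13 ± 0.39, adjusted p = 0.00128). Both were apart in every array. Junb (-1.33 ± 0.43, adjusted p = 0.0462) was lost without any 1 array except germinal centre replicate 5 (up to 0.12), without dim genes (0.0545) and after renewed quantile normalization (0.0866). As a whole the list overlapped: its mean level was 7.28 to 8.77 in germinal centre and 8.32 to 8.79 in transitional arrays.

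NF-kB genes moved both ways, with 2 of 16 called higher and 2 lower. Nfkb2, a subunit of the alternative pathway, was lower (-1.09 ± 0.29, adjusted p = 0.0169), but not without transitional replicate 4 (0.0667). The others were near the threshold: Bcl3 (-1.60 ± 0.51, adjusted p = 0.0416) was lost without any 1 array except germinal centre replicate 4 (up to 0.109) and after renewed quantile normalization (0.0616). The chemokines Ccl3 (1.81 ± 0.54, adjusted p = 0.0316) and Ccl4 (1.52 ± 0.45, adjusted p = 0.0311), which NK cells and macrophages also secrete, were lost without transitional replicates 1, 2 or 4 or germinal centre replicates 1, 2 or 5 (up to 0.105 and 0.096) and after renewed quantile normalization (0.0641 and 0.0755). Cd274, the checkpoint ligand PD-L1, was lower, at 8.20, 7.99, 8.86, 8.66 and 9.47 against 9.45, 9.75, 11.34 and 10.66 (-1.67 ± 0.43, adjusted p = 0.0148), but not without transitional replicate 3 (0.0575). Hes1, a Notch target, was lower at 4.34, 4.38, 4.12, 4.18 and 6.02 against 6.04, 6.47, 7.06 and 6.44 (-1.89 ± 0.51, adjusted p = 0.0181), also not without transitional replicate 3 (0.0528).

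Metabolic lists changed in single genes. Of 15 glycolysis genes 3 were called higher and 0 lower (20.0%, beside 13.5% of all genes called), with a median of 0.38. Slc16a1, a lactate and pyruvate carrier, stood at 9.19, 8.90, 8.75, 8.12 and 8.44 against 5.04, 6.18, 6.60 and 7.48 (2.35 ± 0.48, adjusted p = 0.00328). Pgam1, a glycolytic mutase, was 1.65 ± 0.34 higher (adjusted p = 0.00385). The last of them, Tpi1 (1.27 ± 0.40, adjusted p = 0.0387), was lost without any 1 array except germinal centre replicate 5 (up to 0.105) and after renewed quantile normalization (0.089). Its other probe sets moved by 2.59 and 2.37, both without overlap. Of 37 genes of oxidative phosphorylation, 2 were called higher and 1 lower (8.1%, beside 13.5% of all genes called), with a median of -0.07. Of 19 genes of ribosome biogenesis, 1 was called higher and 2 lower (15.8%, beside 13.5% of all genes called). Rrs1, a ribosome assembly factor, stood at 8.32, 8.62, 8.43, 7.69 and 8.21 against 4.38, 4.49, 5.43 and 5.67 (9.59-fold, 3.26 ± 0.66, adjusted p = 0.00293) and lay near plasmablasts (difference 0.09).

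The arrays measured transcripts of enzymes that build the sugar chains read by the sort. PNA binds galactose chains that lack a sialic acid cap, and St3gal1 adds that cap. St3gal1 was lower, at 4.20, 4.50, 4.50, 4.15 and 4.88 against 5.10, 5.99, 5.12 and 5.44, without overlap (-0.96 ± 0.28, adjusted p = 0.0286). The call was lost without any 1 of transitional replicates 2 and 4 or germinal centre replicates 1 to 4 (0.0262 to 0.115 over the 9 arrays) and after renewed quantile normalization (0.116). Cmah, whose loss gives the GL7 epitope of germinal centre cells, stood at 5.27, 5.66, 6.31, 6.72 and 6.90 against 7.80, 6.88, 6.73 and 6.08 and did not pass (-0.70 ± 0.38, adjusted p = 0.225). St6gal1 (0.54 ± 0.33) did not pass either. Of 6 such genes, 0 were called higher and 1 lower (16.7%, beside 13.5% of all genes called).

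By size, the 12 largest increases outside the marker lists were led by Chil3 (4.34 ± 0.48), a chitinase-like protein of myeloid cells, and Cep55 (4.29 ± 0.65), which completes cytokinesis. Cep55 stood at 10.82, 10.62, 10.23, 10.24 and 8.84 against 5.85, 5.63, 5.88 and 6.09 (19.6-fold). The other Cep55 probe set moved by 1.3 and overlapped. Among the 12 were also Fscn1 (4.29 ± 0.60), an actin bundler, Cip2a (4.09 ± 0.89), an inhibitor of phosphatase PP2A, and Bcat1 (3.64 ± 0.73), which handles branched amino acids and was the smallest of the 12. Their other probe sets moved by 1.29, 0.13 and -0.39 for Fscn1, by 0.50 for Cip2a and by -0.60 for Bcat1, and with the mean of probe sets the differences were 1.33, 2.30 and 1.52, all still called (adjusted p = 0.00264 to 0.0402). Becn1, an autophagy protein, stood at 9.93, 10.33, 10.35, 10.22 and 10.39 against 6.25, 5.82, 6.94 and 6.99 (3.74 ± 0.41, adjusted p = 1.36e-05), and of its 4 probe sets 3 moved the same way. Ctla2a, a cysteine protease inhibitor of activated T cells, had the smallest adjusted p of the genes named. It stood at 8.65, 8.77, 8.20, 7.73 and 8.32 against 3.83, 4.27, 4.28 and 4.46 (17.5-fold, 4.13 ± 0.27, adjusted p = 9.26e-09). The T- and NK-cell receptor Cd7 (3.91 ± 0.57) and Anxa2 (3.69 ± 0.47), a membrane-binding protein, complete the set with Gcsam, Hells and Dck. The other probe sets of Anxa2 moved by 0.71 and -0.50, and the mean of all gave 1.30 (adjusted p = 0.00368).

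The largest decreases after Irs2, Pdia4 and Sik1 reached mostly genes that are dim in germinal centre cells. Mid1, a ubiquitin ligase, stood at 3.17, 3.20, 3.77, 4.25 and 3.53 against 7.29, 8.51, 4.63 and 4.96 (-2.76 ± 0.65, adjusted p = 0.00801), with transitional replicates 1 and 2 high and 3 and 4 near the germinal centre arrays. Trps1, a GATA-type repressor, stood at 4.05, 4.20, 4.67, 4.78 and 5.43 against 6.80, 6.82, 7.45 and 7.60 (-2.54 ± 0.41, adjusted p = 0.000482). Baiap2l1 (-2.52 ± 0.54), an adaptor between membrane and actin, was at 5.17 to 6.59 against 8.14 to 9.10. Cdh2 (-2.54 ± 0.30), N-cadherin, Nts (-2.50 ± 0.36), neurotensin, Adm (-2.47 ± 0.34), adrenomedullin, Lor (-2.44 ± 0.39), a skin barrier protein, and Mtmr7 (-2.40 ± 0.44), a lipid phosphatase, had germinal centre means from 2.91 to 3.93.

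Il7r, the interleukin-7 receptor chain of B-cell precursors and of T cells, was higher, at 7.38, 7.82, 7.36, 7.06 and 8.05 against 4.03, 5.35, 4.11 and 4.20 (8.64-fold, 3.11 ± 0.41, adjusted p = 0.000105). Its other probe set moved by 0.30 and overlapped, and the mean of both gave 1.7 (adjusted p = 0.00474). It was also higher than in plasmablasts (by 2.10, adjusted p = 0.0146). Of 11 early B-cell genes 2 were called higher and 0 lower (18.2%, beside 13.5% of all genes called), with a median of 0.13. The second, Igll1 of the surrogate light chain (1.07 ± 0.31, adjusted p = 0.0265), was lost without any 1 of transitional replicates 3 and 4 or germinal centre replicates 1 to 4 (up to 0.0807) and after renewed quantile normalization (0.114). The part of the T-cell markers below in the Il7r value was not tested.

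Markers of other blood cells formed the other large block of increases. Of 13 NK-cell markers measured, 12 were called higher and 0 lower (92.3%, beside 5.29% of all genes), with a median of 2.94. Their summed linear level was 2425 to 6442 in germinal centre arrays, 660 to 895 in transitional arrays and 846 to 1403 in plasmablasts. Klrd1, an NK receptor chain, stood at 9.21, 9.05, 8.55, 7.92 and 8.35 against 4.49, 4.01, 4.60 and 4.09 (20.0-fold, 4.32 ± 0.43, adjusted p = 5.48e-06). Gzma, granzyme A, stood at 11.43, 11.36, 9.45, 8.58 and 9.22 against 5.03, 4.68, 3.81 and 5.08. Also higher were Ctsw (4.78 ± 0.56), Nkg7 (3.47 ± 0.46), Klrk1 (3.30 ± 0.45), Xcl1 (3.06 ± 0.41) and Il2rb (2.94 ± 0.49). The member that was not higher was Prf1, perforin, at 5.48 to 6.06 against 6.87 to 7.34 (-1.30 ± 0.43, adjusted p = 0.0508). With the strain covariate 3 members stayed called, Ctsw, Klrd1 and Il2rb, and the median was 3.10.

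Of 16 T-cell markers, 7 were called higher and 0 lower (43.8%, beside 13.5% of all genes called). Their median was 1.34 and their summed level 3726 to 5656 against 1988 to 3004. The receptor chain Cd3e stood at 7.59, 8.21, 8.15, 7.58 and 8.69 against 5.14, 5.55, 5.35 and 5.05 (2.77 ± 0.28, adjusted p = 5.48e-06). Cd3g (2.78 ± 0.44), Ms4a4b (4.94 ± 0.57), Lat (1.79 ± 0.36) and Cd8a (2.05 ± 0.48) were higher, Cd8a not with the mean of its probe sets (adjusted p = 0.0637) or after renewed quantile normalization (0.0649). The other probe set of Ms4a4b moved by -0.17 and overlapped, and the mean of both gave 2.38 (adjusted p = 0.00106). Cd3d (2.03 ± 0.63, adjusted p = 0.0373) was lost without transitional replicates 1, 2 or 4 or germinal centre replicates 1, 2 or 5 (up to 0.103), and after renewed quantile normalization (0.115). Cd4, the co-receptor of helper T cells, was near the array median and did not pass, at 4.92, 5.23, 5.22, 4.89 and 5.47 against 5.52, 5.97, 5.11 and 5.43 (-0.36 ± 0.28).

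Of 13 granulocyte markers, 8 were called higher and 0 lower (61.5%, beside 13.5% of all genes called). Their median was 2.94 and their summed level 3199 to 16099 against 216 to 1966. The granule protein Ngp stood at 9.62, 10.19, 10.10, 7.80 and 9.88 against 4.14, 3.66, 5.78 and 4.51 (5.00 ± 0.52, adjusted p = 7.16e-06). S100a9, a calcium-binding protein of neutrophils, stood at 12.92, 12.95, 12.63, 10.70 and 12.55 against 7.07, 6.32, 10.27 and 9.79 (3.99 ± 0.65). Germinal centre replicate 4 was the lowest of its group for both. Elane, neutrophil elastase, was dim in all 9 arrays (2.83 to 4.16). The plasmablast sums were 3118 to 9907, above every transitional array and below every germinal centre array except replicate 4, and the difference of Ngp from plasmablasts did not pass (1.16, adjusted p = 0.452).

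Of 17 macrophage and dendritic markers, 8 were called higher and 1 lower (52.9%, beside 13.5% of all genes called). Their median was 0.98 and their summed level 2432 to 6751 against 855 to 2120. C1qc, a complement subunit, stood at 7.76, 7.35, 5.64, 5.21 and 6.74 against 4.37, 4.72, 3.36 and 4.01 (2.43 ± 0.52), and Cd68 was higher (1.92 ± 0.49). The count fell to 3 without any 1 of transitional replicates 3 and 4 or germinal centre replicates 2 and 5, to 4 without germinal centre replicate 1 and to 5 without transitional replicate 2 or after renewed quantile normalization. Of 9 erythroid markers limma called 0, with 2 higher and 1 lower at an unadjusted p under 0.05 and 5 called in the 2 groups alone, although their summed level was 1551 to 1996 against 617 to 864. Of 6 platelet markers 0 were called, with 0 at that unadjusted p and 3 called in the 2 groups alone. Of 7 liver genes 2 were called lower (28.6%, beside 13.5% of all genes called). These were Cyp2c29 (-2.72 ± 0.32) and Cyp2e1, both dim in germinal centre cells. Cyp2e1 was not called without transitional replicate 2 or 3 (up to 0.0715), with equal medians or after renewed quantile normalization. Of 12 stromal and follicular dendritic markers 1 was called lower (8.3%, beside 13.5% of all genes called). It was Pecam1, an adhesion molecule (-1.90 ± 0.42). The part of the cells that these markers represent in the other differences was not tested. The order of germinal centre replicates differed between lists: replicate 5 was lowest for mitosis and replicate 4 for NK, T-cell and granulocyte markers.

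**Figure D4:**
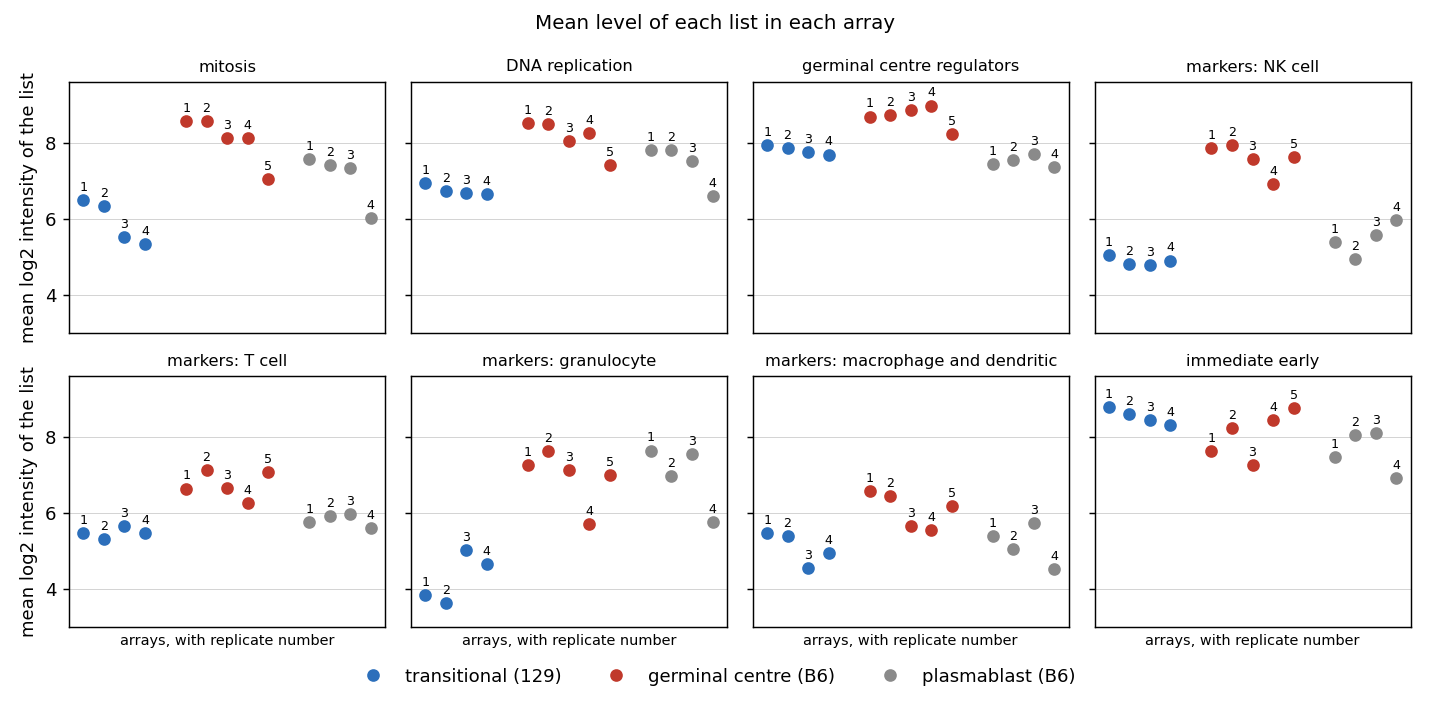
Mean log2 intensity of 8 lists (y axis) in each array (x axis, with the replicate number at each point) of transitional (blue), germinal centre (red) and plasmablast (grey) cells. Germinal centre arrays lie above transitional arrays in every panel except immediate early, which overlaps. The granulocyte panel has plasmablasts level with germinal centre cells.

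Of genes known to carry strain variants, Apobec3, Casp4 and Nnt were not called. Apobec3, a restriction factor, fell into 2 levels inside each group: 10.42 and 10.75 against 8.04, 8.06 and 8.08 in germinal centre replicates 1 and 2 against 3 to 5, and 10.92 and 10.97 against 7.10 and 6.64 in transitional replicates 1 and 2 against 3 and 4. In both strains the first replicates were the high ones, and the group difference did not pass (0.16 ± 0.96, adjusted p = 0.931). Casp4 (0.41 ± 0.50) and Nnt (-0.83 ± 0.54) did not pass either. Against plasmablasts, with the strain the same, 84 genes were called (0.678%), 69 of them higher in germinal centre cells (0.557%). Without 1 array the count was 31 to 110, and it was 33 to 41 without any 1 of germinal centre replicates 1 to 3 and 31 to 49 without any 1 of plasmablast replicates 1 to 3. Among these were Gcsam (3.47, adjusted p = 0.00142), Fas (3.04, adjusted p = 0.00142), Pou2af1 (1.46, adjusted p = 0.0253), Mcm4 and Il7r, and the markers Klrd1 (3.68, adjusted p = 0.000131), Cd3e (1.69, adjusted p = 0.0037) and Xcl1 (3.06, adjusted p = 0.000496). Both comparisons share the germinal centre arrays, so these values stand side by side and are not independent.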

How the data were processed

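The deposited series table holds log2 intensities per probe set, made by the authors with RMA per the submitters' processing notes; version, genome build and which arrays were normalized together are not given in the sources used here. Of 22690 probe sets, 64 controls, 691 of several genes and 1555 without a symbol were dropped. Of a gene's probe sets the one with the highest mean was used, which gave 12393 genes, 4956 of them with several. Detection calls were not used, and dim means a mean under the median of all values in both groups. Arrays give no counts, so their number limits the precision.

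Groups came from the titles. A limma 3.58.1 contrast (R 4.3.3) was fitted on the 22 normal arrays of 6 stages, with Benjamini-Hochberg adjustment over all genes, and was tested on simulated data. Lists were described by counts and medians without a test. Named genes followed a rule: the 12 largest changes in each direction without overlap, up to 5 called members of a list by p, called members against the majority, markers, and members whose role was needed. The members and lists were chosen with earlier results of these data known. Alternatives were the mean of probe sets, a filter on dim genes, 2 normalizations, a trended prior, array weights, other sets of arrays, the replicate block, covariates for strain, 18S rRNA and the 3' minus 5' difference, and leaving out each array. Promoter letters came from RefSeq (GRCm38.p6).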

Additional observations from a re-analysis of the deposited data

Results flagged for a closer look

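In 308 gene and group combinations tested for 1 array far from the others, 15 were picked out, and chance picks about 1 in 20. In 7 of them the array was germinal centre replicate 5. It was low for Ezh2 (7.04, others 8.35 to 8.62), Kif11 (5.76, others 7.36 to 7.70), Mybl1 (3.22, others 5.50 to 6.15), Pgam1 (8.73, others 8.98 to 9.04) and Slamf1, a costimulatory receptor (7.49, others 8.50 to 8.85). It was high for Myc (10.23, others 7.75 to 8.44) and Hes1 (6.02, others 4.12 to 4.38). The excess of 3' over 5' control signal (Actb and Gapdh) was 0.85 in that array, inside the 0.68 to 1.55 of the group. In transitional cells this excess was 2.21 in replicate 4 and 0.78 to 0.91 in the other arrays. With it as a covariate 19 mitosis members were called higher, the same count as in the main fit. Germinal centre replicate 4 was low for the granulocyte genes Ngp (7.80, others 9.62 to 10.19) and S100a9 (10.70, others 12.55 to 12.95). In transitional cells, replicate 2 was high for Il7r (5.35, others 4.03 to 4.20), Lyz1, a lysozyme (9.17, others 7.44 to 7.62), and Xcr1, a dendritic cell receptor (5.22, others 3.86 to 4.05). Transitional replicate 1 was high for Gbp3, an interferon-induced GTPase (6.54, others 5.03 to 5.10), and Nusap1 (6.56, others 5.17 to 5.35), and replicate 4 was low for Cd8a (4.84, others 5.25 to 5.32).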

How the results depend on the processing

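The 1673 calls became 868 without dim genes, 908 after renewed quantile normalization, 5614 with array weights, 5286 in the 2 groups alone, 5139 without arrays of narrow spread and 40 with the strain covariate. They ranged from 941 to 1437 when 1 array was left out (949, 941, 1030 and 990 without transitional replicates 1 and 2 and germinal centre replicates 1 and 2). Against plasmablasts, 84 calls became 165 with equal medians, 3010 with array weights, 1679 in the 2 groups alone, 845 without arrays of narrow spread and 143 with the 3' minus 5' covariate, and ranged from 31 to 110 without 1 array. With replicate numbers as a block, 4895 and 1726 genes were called. Same-numbered germinal centre and transitional arrays deviated together with correlations of 0.194, 0.121, 0.066 and 0.223. A transitional array's correlation was highest with its own number only for replicates 1 and 4. Germinal centre replicates 1 and 2 had correlations of 0.121 to 0.194 with transitional replicates 1 and 2, and of -0.244 to -0.084 with 3 and 4. Whether arrays of the same number belong together was not tested.

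Called members of the lists kept within 1.5 times of the main count under most settings. Mitosis (19) had 0 with the strain covariate and ranged from 12 to 20 without 1 array. DNA replication (11) had 23 with array weights, 21 in the 2 groups alone, 22 without narrow arrays, 22 with the block and 0 with strain. Germinal centre regulators (4) had 7 with array weights, 7 with the block and 0 with strain. With strain, NK-cell markers had 3, T-cell markers 3, and granulocyte and macrophage markers 0 each, and macrophage markers had 5 after renewed quantile normalization and 3 to 7 without 1 array. Genes with a full strain pattern were 2, and 4 after renewed quantile normalization. With the mean log2 level, 0 instead of 1 germinal centre array exceeded every transitional array in platelet markers. With the mean of probe sets the shares of higher genes with a CHR, CCAAT box, E2F site and Yy1 core moved from 19.7%, 39.9%, 13.4% and 16.6% to 21.8%, 41.8%, 12.2% and 17.5%.

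Directions turned for few named genes: Apobec3 (-0.03 after renewed quantile normalization, -0.45 with array weights, -0.59 to 0.85 without 1 array), Fcer2a (0.17 with array weights, -0.49 to 0.32), Cd93 (-0.63 to 0.27), Yy1 (-0.27 with the mean of probe sets, -0.01 with strain), and, with strain, Ccl3 (0.00) and Ppbp, a platelet chemokine (0.12); none was called there. The cause was not tested.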

Other observations

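Some gene groups outside the main account held single changes. Of 17 genes of the Bcl2 family and apoptosis, 1 was called higher and 0 lower (5.9%, beside 13.5% of all genes called). Cflar, the inhibitor of the caspase that Fas activates, stood at 7.41, 7.89, 8.08, 7.62 and 8.63 against 5.88, 6.71, 5.99 and 6.98 (1.53 ± 0.34, adjusted p = 0.00565), while its other probe sets moved by -0.18, 0.35 and -0.45 and overlapped, and the mean of all 4 was not called (adjusted p = 0.471). Bcl2, which germinal centre cells are known to shut off, stood at 5.28, 5.59, 6.42, 6.09 and 7.63 against 6.72, 7.53, 7.85 and 7.59 and did not pass (-1.22 ± 0.60, adjusted p = 0.18). Germinal centre replicate 5 was the array that overlapped with the transitional ones. Of 19 interferon-stimulated genes, 1 was called higher and 1 lower (10.5%, beside 13.5% of all genes called). These were Gbp3 (1.42 ± 0.38) and dim Mx2 (-1.12 ± 0.31). Both lost their calls after renewed quantile normalization (adjusted p = 0.139 and 0.19), Gbp3 also without transitional replicate 2 or 4 (up to 0.0613), and Mx2 also without transitional replicate 1 or 2 or germinal centre replicate 1 (up to 0.107). With the strain covariate the calls of Cflar, Gbp3 and Mx2 were all lost (adjusted p = 0.254, 0.83 and 0.775).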
